A study of Mus musculus with 12 samples.

Results

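Genes of fatty acid uptake, triglyceride storage and mitochondrial beta-oxidation were measured by RNA sequencing of mouse left ventricle. A set of 34 genes was taken by symbol from a list of this pathway, and all 34 were among the 15542 genes with enough counts to be tested, out of 49492 rows in the count table. The set was chosen with earlier results of these data known. The 12 libraries fall into 4 groups of 3: Alox5ko_TAC, WT_TAC, Alox5ko_NS and WT_NS. Alox5ko is the Alox5 knockout and WT the wild type. Alox5 encodes arachidonate 5-lipoxygenase, the enzyme that starts leukotriene synthesis from arachidonic acid. TAC is transverse aortic constriction, surgery that narrows the aorta and makes the left ventricle pump against pressure. NS is the label of the ventricles without TAC and is not spelled out there. The design text speaks of cardiac Alox5 deficiency, whereas the sample labels give the genotype alone. The allele, any Cre driver, strain, sex, age and time after TAC are not given in the sources used here. The labels do not tie the libraries to separate animals, and a p-value below therefore covers the spread among these libraries only, which may be technical.

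The heart draws most of its energy from long-chain fatty acids. Lipoprotein lipase frees them from triglyceride, CD36 and fatty acid binding proteins carry them into and through the cell, acyl-CoA synthetase activates them, and the carnitine shuttle moves them into mitochondria. There the beta-oxidation spiral removes acetyl-CoA units in repeated cycles of oxidation, hydration, oxidation and thiolysis, and electron transfer flavoprotein passes electrons to the respiratory chain. Many of these genes are known targets of the nuclear receptors PPAR-alpha and ERR-alpha.

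Library totals ran from 20889431 to 27311196 counts. Alox5 itself, the check of the genotype labels, was at 0.934 to 1.46 CPM (counts per 1e6 library counts, scaled with TMM factors) in the 6 Alox5ko libraries and at 9.56 to 13.9 CPM in the 6 WT libraries. All 15 cardiomyocyte markers were detected. By library totals alone, the myosin Myh6 was at 84400 to 119000 CPM and the skeletal muscle myosins Myh1, Myh2 and Myh4 at 0.417 CPM or less. Of the 5 atrial markers, Myl4 was at 1.32 to 76.9 CPM, Myl7 at 0 to 13 CPM, Nr2f2 at 3.65 to 8.84 CPM, Sln at 0 to 1.27 CPM and Upk3b at 0 to 0.136 CPM. Their summed level set 3 libraries apart, at 96.01 CPM in Alox5ko_TAC replicate 3, 66.68 CPM in WT_TAC replicate 1 and 83.5 CPM in WT_NS replicate 1, against 6.81 to 37.95 CPM in the other 9. Mitochondrially encoded genes took 14.56% to 21.42% of the counts, most in Alox5ko_NS replicate 3. In that library the summed level of the 15 cardiomyocyte markers was also the lowest, at 175500 CPM, against 197000 to 215800 CPM over the other 11 libraries.

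Levels of different genes were set side by side as RPKM, the authors' values corrected for the length of each gene and for depth. Fabp3, the heart fatty acid binding protein, had by far the highest level at a mean of 7560 RPKM over the 12 libraries. It was followed by Etfb, a subunit of electron transfer flavoprotein (966 RPKM), and by 3 enzymes of the spiral: Acadl, the long-chain acyl-CoA dehydrogenase (362 RPKM), Acaa2, the mitochondrial 3-ketoacyl-CoA thiolase (311 RPKM), and Acadm, the medium-chain dehydrogenase (278 RPKM). Lpl, lipoprotein lipase, stood at 274 RPKM and the fatty acid transporter Cd36 at 122 RPKM. The lowest were Ehhadh, a bifunctional enzyme of peroxisomes, at 1.17 RPKM, and Angptl4, a secreted inhibitor of lipoprotein lipase, at 0.87 RPKM.

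The gate of the carnitine shuttle, carnitine palmitoyltransferase 1, has a muscle isoform, Cpt1b, and a liver isoform, Cpt1a. Cpt1b averaged 73.4 RPKM and Cpt1a 4.02 RPKM over the 12 libraries. By group Cpt1b was at 76.0 ± 4.36 RPKM in Alox5ko_TAC, 72.4 ± 3.64 in WT_TAC, 72.3 ± 6.51 in Alox5ko_NS and 72.8 ± 1.79 in WT_NS (SD, n = 3 each). Cpt1a was at 3.51 ± 0.30, 3.91 ± 0.455, 4.19 ± 0.751 and 4.47 ± 0.444 RPKM in the same groups. The muscle isoform thus had the higher level in every group. Cpt1b shares 2744 exon bases with Chkb on the same strand, and Chkb holds 71443 counts against 68430 for Cpt1b, so reads of these neighbours cannot be told apart.

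**Figure D1:**
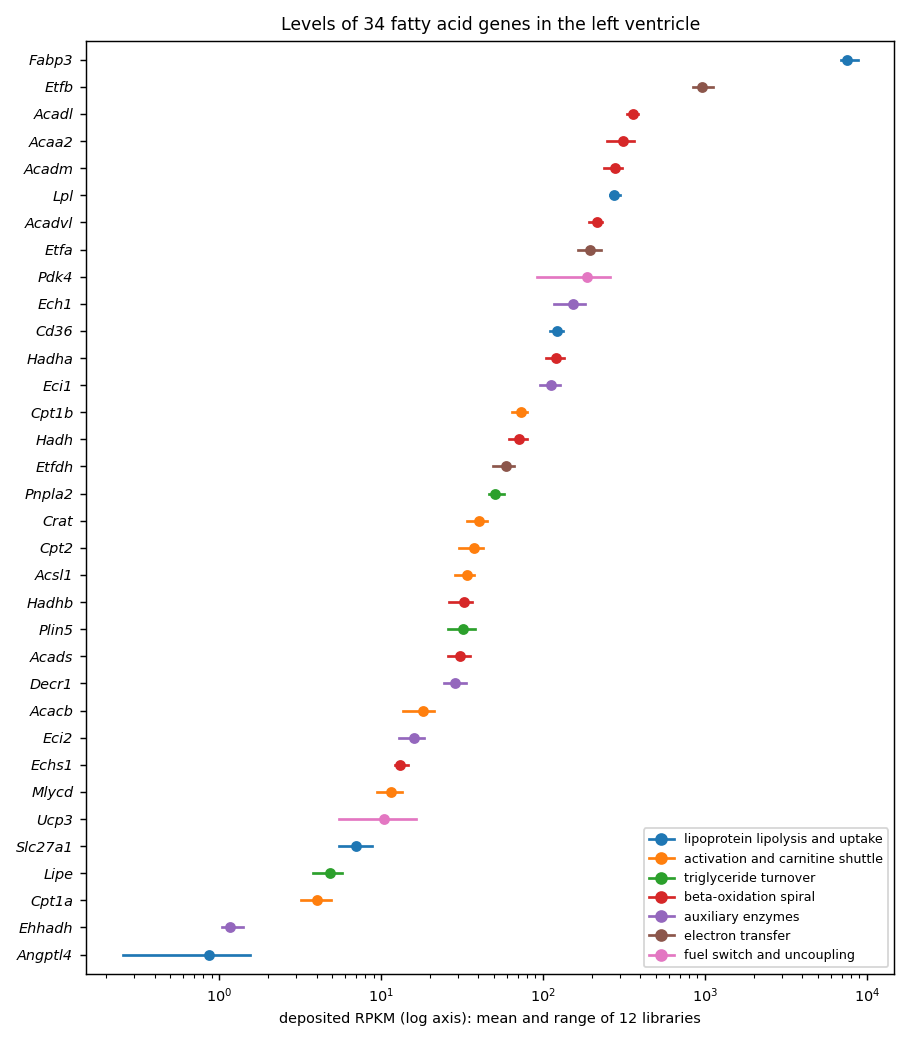
Deposited RPKM (log axis) of the 34 genes, with the mean as a point and the lowest and highest of the 12 libraries as a line, coloured by role. Fabp3 stands at 7560 RPKM and Angptl4 at 0.87 RPKM, and the widest lines belong to Pdk4, Ucp3 and Angptl4.

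The first question was how this pathway differed after TAC. Over both genotypes, with the WT and Alox5ko responses averaged, 10 of the 34 genes fell and none rose (edgeR quasi-likelihood F test, Benjamini-Hochberg adjusted p under 0.05 over all 15542 genes). Of all genes tested, 2.19% fell in the same comparison. Without the 3 libraries with the highest atrial markers, left out together after the data were seen, 2 of the 34 passed (Acaa2 and Ech1), the median of the 34 was -0.16 in place of -0.19, and 165 of all genes were called in place of 790. The 10 genes were Acaa2, Acadm, Hadh and Hadhb of the spiral, Ech1 and Decr1, which prepare unsaturated fatty acids for it, the 3 electron transfer genes Etfa, Etfb and Etfdh, and Mlycd, malonyl-CoA decarboxylase, which removes the inhibitor of carnitine palmitoyltransferase 1. Thus 9 of the 17 enzymes of the spiral, its auxiliary steps and electron transfer passed the test, and 1 of the 17 other genes. The median log2 fold change of the 34 genes was -0.19, beside 0.00067 for all genes tested.

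Within Alox5ko, 1 of the 34 genes fell (Acaa2), beside 0.611% of all genes. Within WT, 2 of the 34 fell (Acaa2 and Ech1), beside 0.29% of all genes. With DESeq2 the counts were 9 in Alox5ko and 4 in WT, and without the filter on low counts they were 5 in Alox5ko and 3 in WT, so the order of these counts turns with the tool. Calls over all genes also rose in both genotypes with DESeq2 and without the filter, as counted in the last paragraph. The higher counts are therefore not read as a result about the 34 genes. Without the 3 libraries named above, 0 passed in either genotype. None rose in either genotype. The median log2 fold change of the 34 was -0.17 in Alox5ko, where that of all genes was -0.0028, and -0.17 in WT, where it was 0.0045. These comparisons share no libraries, and 28 of the 34 genes (82.4%) had a negative value in both genotypes, against 31.2% of all genes tested. Fabp3, Cpt1b and Pnpla2 had a positive value in both, and Slc27a1, Acacb and Ehhadh had values of opposite sign, none of them past the test.

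**Figure D2:**
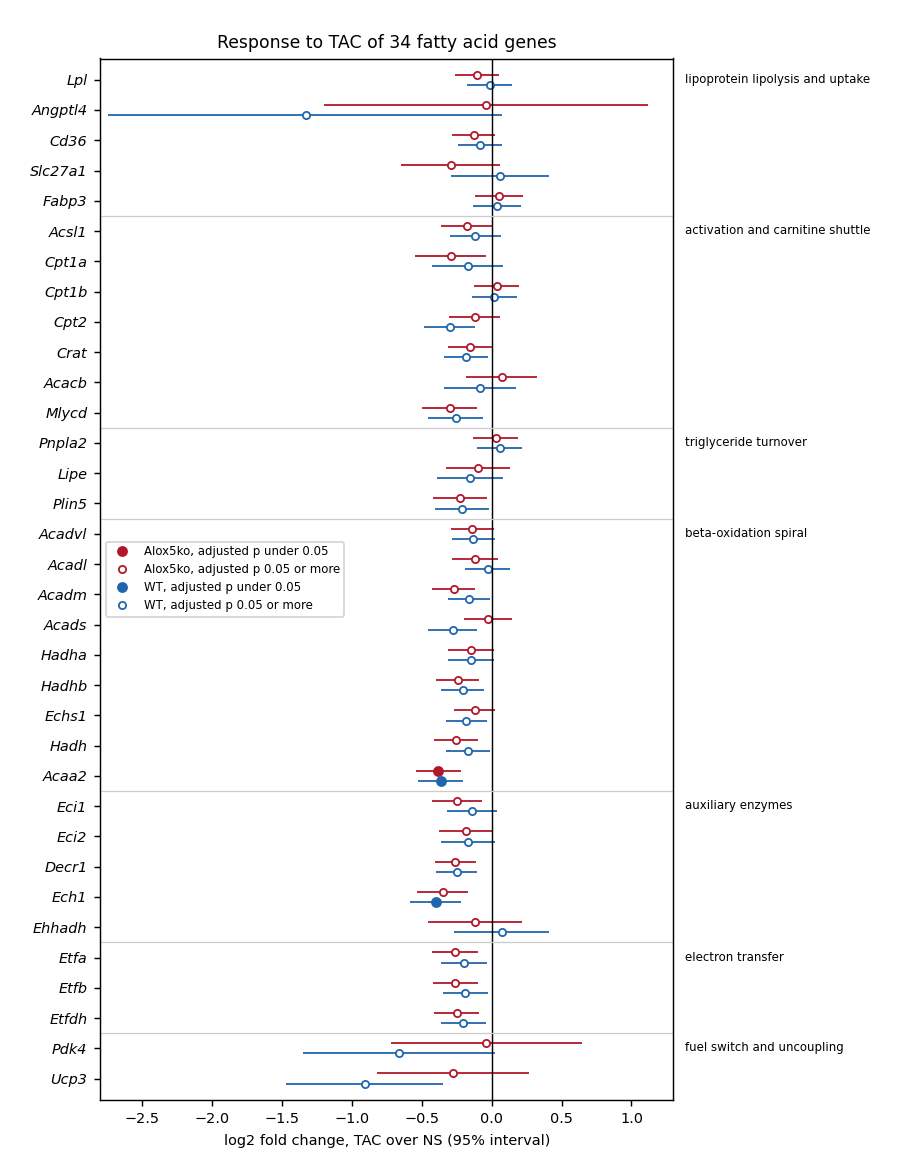
Log2 fold change of TAC over NS for each of the 34 genes in Alox5ko (red, above) and WT (blue, below), with 95% intervals and filled points at an adjusted p under 0.05. The spiral, auxiliary and electron transfer genes lie left of 0 with the exception of Ehhadh in WT, and Acaa2 at -0.38 in Alox5ko and -0.36 in WT is filled in both.

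Acaa2 catalyses the last step of the spiral, the release of acetyl-CoA. It was at 436, 438 and 405 CPM in Alox5ko_TAC, against 563, 536 and 566 CPM in Alox5ko_NS. It was at 372, 380 and 435 CPM in WT_TAC, against 481, 510 and 537 CPM in WT_NS. Every TAC library was below every NS library, also across genotypes. Acaa2 fell by 0.38 on the log2 scale in Alox5ko (SE 0.0778, adjusted p = 0.0212 by edgeR), by 0.36 in WT (SE 0.0778, adjusted p = 0.0365) and by 0.37 over both (SE 0.055, adjusted p = 0.000831). The change over both amounts to a level that fell by 22.8%.

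Ech1 encodes a dienoyl-CoA isomerase, an auxiliary enzyme for unsaturated chains, and had the highest RPKM of the auxiliary genes (154 RPKM). It was at 306, 378 and 299 CPM in Alox5ko_TAC, against 418, 398 and 439 CPM in Alox5ko_NS. It was at 262, 292 and 300 CPM in WT_TAC, against 371, 371 and 385 CPM in WT_NS. The groups did not overlap in either genotype, although Alox5ko_TAC replicate 2 lay inside the WT_NS range. Ech1 fell by 0.38 over both genotypes (SE 0.0624, adjusted p = 0.00177 by edgeR). In Alox5ko its log2 fold change was -0.35 (SE 0.0881, adjusted p = 0.0539), and in WT it fell by 0.40 (SE 0.0883, adjusted p = 0.0396).

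Decr1, the dienoyl-CoA reductase that acts on polyunsaturated chains, was at 110, 108 and 103 CPM in Alox5ko_TAC, against 133, 121 and 130 CPM in Alox5ko_NS. It was at 92.8, 97.5 and 98.1 CPM in WT_TAC, against 111, 118 and 114 CPM in WT_NS. The 6 TAC libraries were all below the 6 NS libraries. Decr1 fell by 0.26 over both genotypes (SE 0.0498, adjusted p = 0.0054 by edgeR). Within a genotype the log2 fold change was -0.26 in Alox5ko (SE 0.0704, adjusted p = 0.0752) and -0.25 in WT (SE 0.0706, adjusted p = 0.111). The other auxiliary genes were the enoyl-CoA isomerases Eci1 and Eci2 and the peroxisomal Ehhadh, with averaged log2 fold changes of -0.19, -0.18 and -0.03, none past the test.

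Hadhb and Hadha encode the beta and alpha subunits of the mitochondrial trifunctional protein, which carries out 3 steps of the spiral on long chains. The genes lie head to head on chromosome 5 (GRCm38), Hadha on the minus strand from 30118304 to 30155162 and Hadhb on the plus strand from 30155248 to 30184593, with 85 bases between their exons. Hadhb was at 203, 213 and 208 CPM in Alox5ko_TAC, against 246, 241 and 252 CPM in Alox5ko_NS, and at 170, 194 and 203 CPM in WT_TAC, against 220, 217 and 216 CPM in WT_NS. All 6 TAC libraries were below all 6 NS libraries. Hadhb fell by 0.23 over both genotypes (SE 0.0524, adjusted p = 0.0162 by edgeR). Hadha was at 1060, 1100 and 985 CPM in Alox5ko_TAC, against 1200, 1200 and 1080 CPM in Alox5ko_NS, and at 901, 955 and 1030 CPM in WT_TAC, against 1040, 1040 and 1120 CPM in WT_NS. Its groups overlapped in Alox5ko, and its averaged log2 fold change of -0.15 (SE 0.0554, adjusted p = 0.134) did not pass. Whether the subunits differ in their response was not tested.

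Acadm, the dehydrogenase that opens the spiral for medium chains, was at 1040, 1020 and 989 CPM in Alox5ko_TAC, against 1220, 1230 and 1220 CPM in Alox5ko_NS. It was at 909, 1020 and 1060 CPM in WT_TAC, against 1090, 1100 and 1140 CPM in WT_NS. No TAC library reached an NS library. Acadm fell by 0.22 over both genotypes (SE 0.0516, adjusted p = 0.0187 by edgeR), and its log2 fold change in Alox5ko alone was -0.27 (SE 0.073, adjusted p = 0.0752). Hadh, the short-chain 3-hydroxyacyl-CoA dehydrogenase, averaged 337 ± 19.8 CPM in Alox5ko_TAC and 402 ± 6.44 in Alox5ko_NS, and 323 ± 20.6 CPM in WT_TAC and 364 ± 22.3 in WT_NS (SD, n = 3 each). It fell by 0.21 over both genotypes (SE 0.0539, adjusted p = 0.0258 by edgeR), with overlapping groups in WT.

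The other spiral genes did not pass in the averaged comparison. They were the very long-, long- and short-chain dehydrogenases Acadvl (-0.13), Acadl (-0.07) and Acads (-0.15), Hadha, and the hydratase Echs1 (-0.15), all as averaged log2 fold changes. Acadl, the spiral gene with the highest RPKM, was at 758, 654 and 738 CPM in Alox5ko_TAC, against 762, 753 and 819 CPM in Alox5ko_NS, and at 670, 701 and 721 CPM in WT_TAC, against 667, 723 and 742 CPM in WT_NS. Its groups overlapped in both genotypes. Acadvl shares 1151 exon bases with Dvl2 on the opposite strand, and Dvl2 holds 84067 counts against 160686 for Acadvl. Whether the counting used strand is not given in the sources used here.

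Etfa and Etfb form electron transfer flavoprotein, which takes electrons from the acyl-CoA dehydrogenases, and Etfdh passes them on to ubiquinone. Etfb was at 1120, 1030 and 1020 CPM in Alox5ko_TAC, against 1190, 1240 and 1370 CPM in Alox5ko_NS, and at 965, 1040 and 1050 CPM in WT_TAC, against 1120, 1150 and 1210 CPM in WT_NS. Etfa averaged 338 ± 20.7 CPM in Alox5ko_TAC and 406 ± 31.5 in Alox5ko_NS, and 320 ± 22.7 CPM in WT_TAC and 368 ± 3.25 in WT_NS (SD, n = 3 each). Etfdh averaged 426 ± 25.5 CPM in Alox5ko_TAC and 507 ± 18.7 in Alox5ko_NS, and 396 ± 28.9 CPM in WT_TAC and 456 ± 12.4 in WT_NS (SD, n = 3 each). In each of the 3 genes, TAC and NS libraries did not overlap within either genotype. Over both genotypes Etfa fell by 0.23 on the log2 scale (adjusted p = 0.0204), Etfb by 0.23 (adjusted p = 0.0207) and Etfdh by 0.23 (adjusted p = 0.0183, all by edgeR). Etfb shares 617 exon bases with the predicted gene Gm45233 on the same strand, which holds 310170 counts against 311877 for Etfb, so the value belongs to both.

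**Figure D3:**
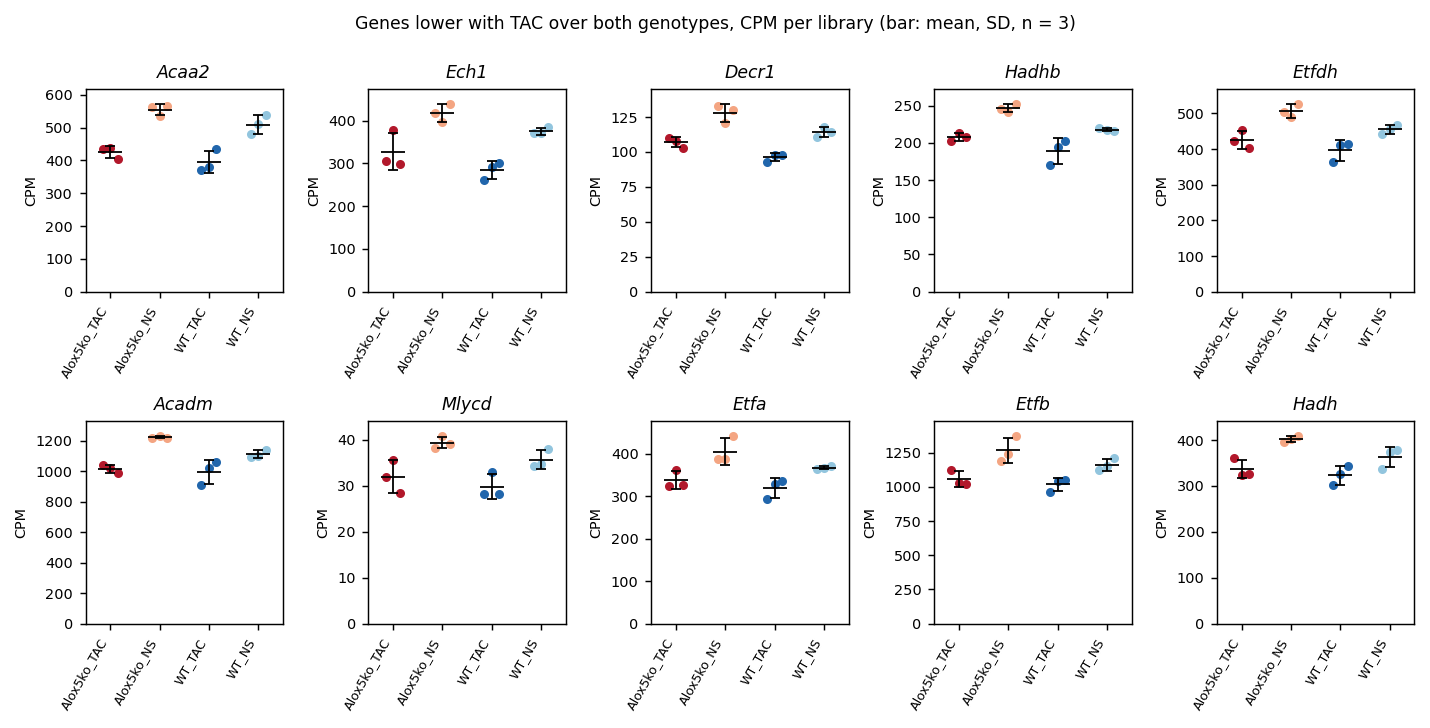
CPM in each library for the 10 genes that fell with TAC over both genotypes, in order of their p-value, with black bars for the mean and SD of 3 libraries. In Acaa2 the 6 TAC libraries lie between 372 and 438 CPM and the 6 NS libraries between 481 and 566 CPM.

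The 250 bases before the RefSeq start (GRCm38.p6) were read for the 28 of the 34 genes with an entry, whether or not they fell with TAC. A motif search on both strands covered AGGTCA, the half-site of nuclear receptors such as PPAR-alpha and ERR-alpha, and the CCAAT box, a common promoter element. AGGTCA or its reverse TGACCT stood in 7 of the 28 genes (25%), beside 15.8% of the 27025 genes in the table. The holders were Acadm, Acadvl, Cd36, Cpt1a, Echs1, Plin5 and Ucp3. Only Acadm of these passed the test with TAC over both genotypes. The half-site with 1 more A, AAGGTCA, or its reverse TGACCTT was searched too. It stood in 1 of the 28 (3.57%), Acadm, beside 4.7% of all. CCAAT or its reverse ATTGG stood in 14 of the 28 (50%), beside 37.5% of all. Of its holders Etfa, Etfb, Etfdh, Hadh and Mlycd passed that test. Acacb, Acsl1, Cd36, Cpt1a, Eci2, Ehhadh, Pdk4, Plin5 and Slc27a1 did not. The sequences below are the upstream stretches, outside every exon of the deposited gene models, of genes that fell with TAC. They are written 5′ to 3′ on the strand of the gene, with either motif in capitals: Acadm and Hadh of the spiral, the stretch between Hadha and Hadhb written on the strand of Hadhb, and both flavoprotein subunits.
Acadm (chr3:153944644-153944893, minus strand): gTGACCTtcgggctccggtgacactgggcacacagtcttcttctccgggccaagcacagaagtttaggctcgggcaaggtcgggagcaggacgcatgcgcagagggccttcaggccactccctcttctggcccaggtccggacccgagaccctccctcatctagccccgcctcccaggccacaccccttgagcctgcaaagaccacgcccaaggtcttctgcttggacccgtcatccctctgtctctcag
Hadh (chr3:131272102-131272351, minus strand): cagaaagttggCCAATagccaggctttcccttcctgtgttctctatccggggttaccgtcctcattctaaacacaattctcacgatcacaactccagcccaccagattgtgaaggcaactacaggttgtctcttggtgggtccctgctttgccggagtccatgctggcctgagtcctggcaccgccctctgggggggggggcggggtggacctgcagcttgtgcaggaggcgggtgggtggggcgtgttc
Hadhb (chr5:30155163-30155247, plus strand): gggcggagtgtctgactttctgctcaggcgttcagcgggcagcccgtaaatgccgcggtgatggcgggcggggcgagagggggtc
Etfa (chr9:55512244-55512493, minus strand): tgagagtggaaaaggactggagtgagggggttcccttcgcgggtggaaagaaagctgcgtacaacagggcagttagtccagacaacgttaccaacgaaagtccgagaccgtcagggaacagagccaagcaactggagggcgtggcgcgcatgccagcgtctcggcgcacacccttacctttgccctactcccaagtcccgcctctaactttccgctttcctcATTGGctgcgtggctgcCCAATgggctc
Etfb (chr7:43443822-43444071, plus strand): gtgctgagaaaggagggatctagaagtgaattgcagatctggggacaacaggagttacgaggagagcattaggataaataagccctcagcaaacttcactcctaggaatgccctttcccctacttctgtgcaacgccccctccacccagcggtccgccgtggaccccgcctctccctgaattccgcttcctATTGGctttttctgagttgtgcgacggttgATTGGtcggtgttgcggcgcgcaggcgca
Acadm holds the reverse half-site near the far end of its stretch, Hadh holds 1 CCAAT box, and Etfa and Etfb hold 2 each close to the start. The Hadha and Hadhb stretch holds neither motif. These matches describe letters and not bound sites.

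Of the 7 genes of activation and the carnitine shuttle, 1 fell over both genotypes, Mlycd, and the median log2 fold change of the 7 was -0.17. Mlycd was at 31.9, 35.7 and 28.4 CPM in Alox5ko_TAC, against 38.3, 40.8 and 39.1 CPM in Alox5ko_NS, and at 28.3, 32.9 and 28.3 CPM in WT_TAC, against 34.4, 34.7 and 38.0 CPM in WT_NS. It was lower with TAC in each genotype without overlap, and fell by 0.28 over both (SE 0.0669, adjusted p = 0.0192 by edgeR). Cpt2, the inner-membrane transferase of the shuttle, was at 90.9, 101 and 80.6 CPM in Alox5ko_TAC, against 101, 102 and 92.8 CPM in Alox5ko_NS, and at 71.4, 80.8 and 75.0 CPM in WT_TAC, against 87.4, 93.8 and 98.8 CPM in WT_NS. Its libraries overlapped in Alox5ko but not in WT, where its log2 fold change was -0.30 (SE 0.0869, adjusted p = 0.124). Over both genotypes Cpt2 was at -0.21 (adjusted p = 0.051), the acyl-CoA synthetase Acsl1 at -0.15, carnitine acetyltransferase Crat at -0.17, Cpt1a at -0.23 and the acetyl-CoA carboxylase Acacb at -0.0042, none past the test.

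Cpt1b was at 270, 258 and 243 CPM in Alox5ko_TAC, against 262, 260 and 231 CPM in Alox5ko_NS, and at 232, 257 and 239 CPM in WT_TAC, against 232, 238 and 248 CPM in WT_NS. Cpt1a was at 15.1, 16.2 and 14.1 CPM in Alox5ko_TAC, against 19.3, 21 and 15.2 CPM in Alox5ko_NS, and at 18.7, 15.7 and 15.6 CPM in WT_TAC, against 18.4, 16.8 and 21 CPM in WT_NS. The libraries overlapped in both isoforms. The 95% interval of the averaged log2 fold change ran from -0.09 to 0.14 for Cpt1b and from -0.41 to -0.05 for Cpt1a, whose adjusted p was 0.13.

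None of the 5 genes of lipoprotein lipolysis and uptake passed the test. Fabp3 was at 7310, 5850 and 6650 CPM in Alox5ko_TAC, against 6230, 6490 and 6390 CPM in Alox5ko_NS, and at 6010, 6230 and 5900 CPM in WT_TAC, against 5510, 6180 and 5980 CPM in WT_NS. The groups overlapped, and the averaged log2 fold change was 0.05 with a 95% interval of -0.08 to 0.17. The same quantity was -0.06 for Lpl (interval -0.17 to 0.05), -0.11 for Cd36 (-0.22 to 0.006), -0.12 for the transport protein Slc27a1 (-0.37 to 0.13) and -0.68 for Angptl4 (-1.60 to 0.23). Of the genes of triglyceride turnover, adipose triglyceride lipase Pnpla2 was at 176, 158 and 151 CPM in Alox5ko_TAC, against 167, 159 and 150 CPM in Alox5ko_NS, and at 149, 154 and 143 CPM in WT_TAC, against 142, 137 and 150 CPM in WT_NS. Its averaged value was 0.04, that of hormone-sensitive lipase Lipe -0.13 and that of the lipid droplet protein Plin5 -0.22 (adjusted p = 0.059). The 9 fat cell markers summed to 314.3 to 367.3 CPM in Alox5ko_TAC, 298.8 to 378 CPM in Alox5ko_NS, 288.1 to 395.8 CPM in WT_TAC and 354.3 to 392.9 CPM in WT_NS. Almost all of this was Fabp4 (287 to 394 CPM), which endothelium also expresses. Pck1 was at 0.879 to 5.38 CPM, and the other 7 were at 1.6 CPM or less, among them Adipoq (0 to 0.656 CPM) and Lep (0 to 0.0479 CPM). Their part in these values was not tested.

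Pdk4, Ucp3 and Angptl4 varied most between libraries of a group. Pdk4 encodes the kinase that shuts pyruvate dehydrogenase and so favours fatty acids as fuel, and Ucp3 a mitochondrial carrier that rises in fasting. Their coefficients of variation within groups were 26.0% for Pdk4, 22.8% for Ucp3 and 42.3% for Angptl4, against 3.24% to 15.8% for the other 31 genes. Pdk4 was at 916, 619 and 737 CPM in Alox5ko_TAC, at 568, 376 and 326 CPM in WT_TAC, at 587, 843 and 905 CPM in Alox5ko_NS and at 471, 655 and 880 CPM in WT_NS. Ucp3 was at 41.6, 29.8 and 30.4 CPM in Alox5ko_TAC, at 19.9, 20.4 and 17.3 CPM in WT_TAC, at 32.9, 47.0 and 43.5 CPM in Alox5ko_NS and at 30.0, 27.2 and 51.0 CPM in WT_NS. Angptl4 was at 5.13, 0.822 and 5.11 CPM in Alox5ko_TAC, at 1.55, 0.90 and 0.986 CPM in WT_TAC, at 3.21, 4.10 and 4.09 CPM in Alox5ko_NS and at 1.82, 2.76 and 4.04 CPM in WT_NS. WT_NS replicate 3 was the highest of its group in all 3 genes, and Alox5ko_TAC replicate 2 was the lowest of its group.

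**Figure D4:**
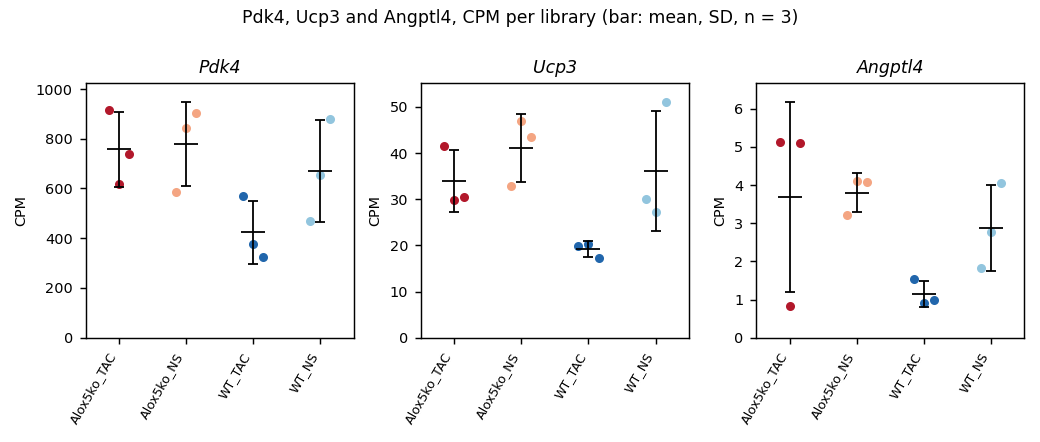
CPM of Pdk4, Ucp3 and Angptl4 in each library, with black bars for the mean and SD of 3 libraries in each group. The WT_TAC libraries are at 17.3 to 20.4 CPM for Ucp3, below all other libraries, and 1 of the 3 Alox5ko_TAC libraries is at 0.822 CPM for Angptl4, below all others.

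Expressed as deviations from the group mean in log2 CPM, the pairwise Spearman correlations between Pdk4, Ucp3 and Angptl4 had a median of 0.71 over the 12 libraries. The median over the 136 pairs of the 17 spiral, auxiliary and electron transfer genes was 0.46, and over all 561 pairs of the 34 genes it was 0.25. These values describe the same 12 libraries and their shared scaling. With TAC the log2 fold change in Alox5ko was -0.04 for Pdk4 (adjusted p = 0.973), -0.28 for Ucp3 (adjusted p = 0.669) and -0.04 for Angptl4 (adjusted p = 0.984). In WT it was -0.66 for Pdk4 (SE 0.301, adjusted p = 0.444), -0.91 for Ucp3 (SE 0.25, adjusted p = 0.16) and -1.33 for Angptl4 (SE 0.624, adjusted p = 0.453, all by edgeR).

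The second question was whether the pathway differed by genotype. In Alox5ko_TAC against WT_TAC none of the 34 genes passed by edgeR or by DESeq2, beside 0.109% of all genes by edgeR. At an unadjusted p under 0.05 there were 8 of the 34, beside 8.49% of all genes. The 4 with the smallest p were Cpt2, Acads, Ucp3 and Angptl4. Cpt2 averaged 90.7 ± 9.99 CPM in Alox5ko_TAC and 75.7 ± 4.72 CPM in WT_TAC (SD, n = 3 each), a log2 fold change of 0.26 (SE 0.0869, adjusted p = 0.358). Acads averaged 72.2 ± 8.53 CPM and 60.9 ± 2.56 CPM in these groups, a log2 fold change of 0.25 (SE 0.0839, adjusted p = 0.371). Ucp3 averaged 33.9 ± 6.62 CPM in Alox5ko_TAC and 19.2 ± 1.66 CPM in WT_TAC without overlap, a log2 fold change of 0.82 (SE 0.251, adjusted p = 0.372). Angptl4 averaged 3.69 ± 2.48 CPM in Alox5ko_TAC and 1.14 ± 0.352 CPM in WT_TAC, a log2 fold change of 1.69 (SE 0.609, adjusted p = 0.478). Without Alox5ko_TAC replicate 2 the value for Angptl4 was 2.16 with an adjusted p of 0.00094, so Angptl4 passed only when that library was left out among the single libraries. Fitted to the 6 libraries compared alone, Ucp3 had an adjusted p of 0.0229.

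In Alox5ko_NS against WT_NS none of the 34 passed by edgeR or by DESeq2, beside 0.0386% of all genes by edgeR. At an unadjusted p under 0.05 there were 2 of the 34, Hadhb and Decr1, beside 6.36% of all genes. Hadhb averaged 246 ± 5.49 CPM in Alox5ko_NS and 218 ± 2.02 CPM in WT_NS (SD, n = 3 each), a log2 fold change of 0.18 (SE 0.0739, adjusted p = 0.725). Decr1 averaged 128 ± 6.02 CPM and 114 ± 3.30 CPM in these groups, a log2 fold change of 0.16 (SE 0.0703, adjusted p = 0.731). Neither pair of groups overlapped. Etfdh and Pnpla2 followed with log2 fold changes of 0.15 (SE 0.0758, adjusted p = 0.79) and 0.15 (SE 0.0774, adjusted p = 0.794).

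**Figure D5:**
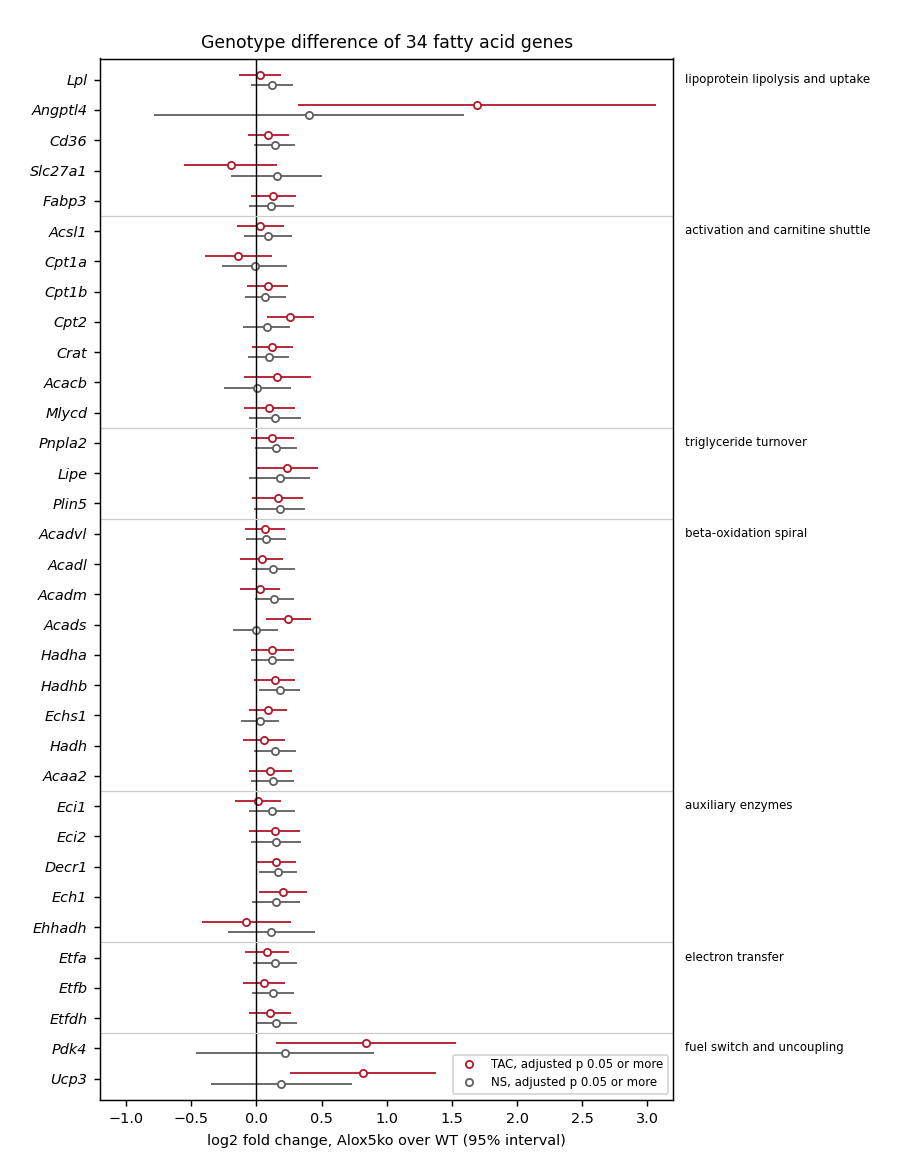
Log2 fold change of Alox5ko over WT for each of the 34 genes with TAC (red, above) and NS (grey, below), with 95% intervals. None passed the test, and Pdk4, Ucp3 and Angptl4 lie farthest right with TAC, at 0.84, 0.82 and 1.69.

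Averaged over treatments, none of the 34 genes passed in Alox5ko against WT by edgeR or by DESeq2, beside 0.154% of all genes by edgeR. At an unadjusted p under 0.05 there were 15 of the 34, beside 9.77% of all genes, and 32 of the 34 had a positive value. The median was 0.12, beside -0.0036 for all genes tested. In the same comparison all 10 fibroblast markers (median -0.20), all 7 tested activated fibroblast markers (-0.51), all 8 smooth muscle and pericyte markers (-0.35), all 4 tested atrial markers (-0.57) and 10 of 11 endothelial markers (-0.14) had negative values, none past the test by edgeR. Of 15 cardiomyocyte markers 12 had positive values (median 0.02). The summed fibroblast markers were at 838.9 to 1002 CPM in Alox5ko_TAC, against 841.6 to 1419 CPM in WT_TAC, and at 759.9 to 856.8 CPM in Alox5ko_NS, against 917.8 to 1103 CPM in WT_NS. The part of these cells in the genotype values was not tested. The smallest p-values belonged to Decr1 (0.16, SE 0.0498, adjusted p = 0.259), Hadhb (0.16, SE 0.0523, adjusted p = 0.288), Ech1 (0.18, SE 0.0623, adjusted p = 0.333) and Cpt2 (0.17, SE 0.0613, adjusted p = 0.349). Without TMM factors, on library totals alone, the median of the 34 in Alox5ko_NS against WT_NS was 0.05 in place of 0.13, and that of all genes tested was -0.08 in place of 0.0017, so the gap between them stayed near 0.13.

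Whether the TAC response itself differed by genotype was tested as the interaction, the response of Alox5ko minus that of WT. None of the 34 passed by edgeR or DESeq2, beside 0% of all 15542 genes by edgeR. At an unadjusted p under 0.05 there was 1 of the 34, beside 5.37% of all genes. That gene was Acads, at 0.25 (SE 0.118, adjusted p = 0.916), whose log2 fold change with TAC was -0.03 in Alox5ko and -0.28 in WT. Ucp3 followed at 0.63 (SE 0.348, adjusted p = 0.961), Angptl4 at 1.29 (SE 0.813, adjusted p = 0.979) and Slc27a1 at -0.35 (SE 0.231, adjusted p = 0.982). For Acaa2 the interaction was -0.02 with a 95% interval of -0.25 to 0.21, and for Ech1 it was 0.05 with an interval of -0.21 to 0.31. Both intervals hold 0 and also differences of 0.2 in either direction.

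Other genes of fatty acid metabolism were counted in 7 lists that hold none of the 34. Over both genotypes with TAC, 5 of 30 tested genes of other mitochondrial and peroxisomal oxidation fell, 2 of 21 of uptake, binding and activation, 2 of 22 of lipid droplets and triglyceride, 3 of 8 acyl-CoA thioesterases and 2 of 23 regulators. None of 11 genes of fatty acid synthesis passed, and 1 of 4 of ketone metabolism rose. Beside these counts, 2.19% of all genes tested fell and 2.89% rose. Acot1, a cytosolic thioesterase that frees fatty acids from CoA, was at 6.02, 5.94 and 5.11 CPM in Alox5ko_TAC, against 10.5, 10.1 and 10.8 CPM in Alox5ko_NS, and at 3.14, 4.11 and 5.12 CPM in WT_TAC, against 8.13, 7.69 and 10.0 CPM in WT_NS. Its libraries did not overlap, and Acot1 fell by 0.97 over both genotypes (SE 0.108, adjusted p = 9.9e-05), by 0.88 in Alox5ko (adjusted p = 0.00714) and by 1.06 in WT (adjusted p = 0.00442, all by edgeR). Acot1 has close paralogs in the same gene cluster, among which reads may be split.

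Mut, methylmalonyl-CoA mutase, fell by 0.33 over both genotypes (SE 0.0556, adjusted p = 0.00217 by edgeR) and by 0.35 in Alox5ko (adjusted p = 0.0316). Dbi, the acyl-CoA binding protein, fell by 0.29 over both (SE 0.0514, adjusted p = 0.0027 by edgeR) and by 0.41 in WT (adjusted p = 0.0118). Klf15, a transcription factor that promotes fatty acid use in heart, fell by 0.46 over both (SE 0.0848, adjusted p = 0.00341 by edgeR). Pccb, a propionyl-CoA carboxylase subunit, fell by 0.34 in WT (adjusted p = 0.0299), and Thrsp, a gene tied to fatty acid synthesis, fell by 0.63 in WT (adjusted p = 0.0358). After their values were seen, 2 more genes were chosen: Ppara, the receptor PPAR-alpha, fell by 0.34 over both (SE 0.0802, adjusted p = 0.0171 by edgeR), and Bdh1, which oxidises the ketone body 3-hydroxybutyrate, was the gene that rose, by 1.01 (SE 0.187, adjusted p = 0.0183). Ppara was at 10.4, 12.1 and 12 CPM in Alox5ko_TAC, against 15.8, 13.4 and 14.6 CPM in Alox5ko_NS, and at 9.53, 9.47 and 11.5 CPM in WT_TAC, against 11.5, 13.5 and 13.5 CPM in WT_NS. Bdh1 was at 137, 127 and 119 CPM in Alox5ko_TAC, against 51.4, 73.9 and 88.8 CPM in Alox5ko_NS, and at 122, 131 and 129 CPM in WT_TAC, against 64.5, 69.3 and 34 CPM in WT_NS.

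Between genotypes 3 genes of these lists passed. Klf15 was at 29.9, 24.9 and 26.1 CPM in Alox5ko_TAC, against 18.1, 15 and 19.5 CPM in WT_TAC, and at 37.1, 28.8 and 40.3 CPM in Alox5ko_NS, against 25.9, 24.9 and 25.3 CPM in WT_NS. The genotypes did not overlap in either treatment, and Klf15 rose by 0.55 averaged over treatments (SE 0.0848, adjusted p = 0.00575 by edgeR). Thrsp rose by 0.83 in Alox5ko_TAC against WT_TAC (SE 0.133, adjusted p = 0.00924), and Scd2, a stearoyl-CoA desaturase, fell by 0.52 in Alox5ko averaged over treatments (SE 0.0999, adjusted p = 0.0366, all by edgeR).

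Markers of other cells moved with TAC too. Of 7 tested markers of activated fibroblasts, 3 rose over both genotypes (Cilp, Ltbp2 and Thbs4), beside 2.89% of all genes tested, and the summed level of the 8 listed was 102.6 to 276 CPM in Alox5ko_TAC, 75.5 to 99.33 CPM in Alox5ko_NS, 172.1 to 434 CPM in WT_TAC and 136.3 to 174.5 CPM in WT_NS. Of 10 fibroblast markers 2 rose (Lum and Mfap5). Of 15 cardiomyocyte markers 2 rose (Mybpc3 and Csrp3) and none fell, and their summed level was 204300 to 215800 CPM in Alox5ko_TAC, 175500 to 205100 CPM in Alox5ko_NS, 204200 to 207400 CPM in WT_TAC and 197000 to 209200 CPM in WT_NS. Of 5 tested skeletal muscle markers 1 rose, the actin Acta1 (log2 fold change 2.40, adjusted p = 0.0295 by edgeR), which stressed ventricle also expresses. Alox5ko_TAC replicate 2 had summed activated fibroblast markers of 102.6 CPM, against 223 and 276 CPM in the rest of its group. Its summed skeletal muscle markers were at 1319 CPM, against 3064 and 2431 CPM there and 1319 to 1347 CPM in Alox5ko_NS. Its summed fibroblast markers, at 1002 CPM, were the highest of its group. The part of this library in the results was not tested. None of the tested markers of endothelium, macrophages, smooth muscle, red cells, fat cells or atrial myocytes passed. Over both genotypes all 10 fibroblast markers (median log2 fold change 0.27) and 10 of 11 endothelial markers (0.14) still had positive values. Endothelial markers were positive in 10 of 11 in Alox5ko (median 0.24) and 6 of 11 in WT (0.07). Macrophage markers were positive in 10 of 10 in Alox5ko (0.20) and 2 of 10 in WT (-0.13). The part of cell makeup in the differences above was not tested, and in bulk tissue fewer cells of a type and less RNA per cell cannot be told apart. Together the 34 genes took 1.897% ± 0.082 of the counts in Alox5ko_TAC and 1.974% ± 0.0317 in Alox5ko_NS, and 1.769% ± 0.0298 in WT_TAC and 1.917% ± 0.0682 in WT_NS (SD, n = 3 each). Mitochondrially encoded genes took 15.85%, 19.43%, 16.69% and 17.3% of the counts in the same order. Of the counts of nuclear genes alone, the 34 took 2.254%, 2.451%, 2.123% and 2.318%. Fabp3 and Lpl, which did not pass, have the highest CPM of the 34 and weigh most in these sums.

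The calls rest on small groups. In Alox5ko, Acaa2 lost its call without Alox5ko_NS replicate 1, Alox5ko_TAC replicate 1 or Alox5ko_TAC replicate 3, with an adjusted p of up to 0.104, and 3 genes passed without Alox5ko_TAC replicate 2. This last library had the lowest activated fibroblast and skeletal muscle sums of its group, as given above. In WT, Ech1 lost its call without any of the 6 libraries (adjusted p 0.0765 to 0.164), and Acaa2 kept it only without WT_TAC replicate 3 (up to 0.183). Over both genotypes 4 genes, Acaa2, Ech1, Decr1 and Hadhb, kept their call in all 12 fits with 1 library left out. The count of 10 fell to 4 without Alox5ko_TAC replicate 3 and to 5 without WT_TAC replicate 1. Without WT_NS replicate 3 it was also 5, of which 4 were among the 10 and Ucp3 was not. The libraries Alox5ko_TAC replicate 3 and WT_TAC replicate 1 are among the 3 with the highest atrial markers. Without WT_NS replicate 1, also among these 3, all 10 genes kept their call. WT_NS replicate 3 is not among them, with summed atrial markers at 34.98 CPM. The part of atrial tissue in the calls was not tested.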

How the data were processed

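RNA of 12 left ventricle samples was measured by polyadenylated RNA sequencing in pairs of 150-base reads, with directional libraries per the labels' protocols. The submitters' processing notes name HISAT2, DESeq2, mm10 and GRCh38; the counting program, strand setting and annotation release are not given in the sources used here. The authors deposited raw counts per gene symbol and RPKM; all 336840 RPKM values compared were recomputed from the counts and gene lengths within 0.1%. Totals per library are 20889431 to 27311196 counts. Positions follow mm10 (GRCm38), in which 28 of the 34 genes have the same start and end as in GENCODE M21, and 11 share exon bases with another gene.

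Counts were tested with edgeR 4.0.16 (R 4.3.3): filterByExpr with a minimum count of 10 and a minimum total of 15, TMM factors, 1 coefficient per group over 12 libraries, robust quasi-likelihood F test, and Benjamini-Hochberg adjustment over 15542 genes in each of 7 comparisons. Each adjusted p is from edgeR unless another tool is named. CPM of single genes use TMM factors, and summed levels use library totals. Alternatives were other scalings, no filter, DESeq2 1.42.0, a replicate block, fits of the compared libraries only and leaving libraries out. The fit was tested on simulated data. Replicates differed beyond sampling noise (chi-square averaged over genes of 5.24 to 30.9 across pairs of libraries within a group), and none was merged. The 34 genes, the other lists and the tests were chosen with earlier results of these data known. Full values are given for genes that passed, for the 4 smallest p-values in a comparison, for the gene with the highest RPKM of each role and for Cpt1a and Cpt1b; other pathway genes are named if they passed, at most 4 a comparison. Promoters are from RefSeq (GRCm38.p6).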

Additional observations from a re-analysis of the deposited data

How the results depend on the processing

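Counts of the 34 genes past the threshold were the same under other size factors, and the 10 genes of the averaged TAC comparison remained called under RLE factors, library totals, DESeq2, no filter and the block. The cause of each change below was not tested. Fits with libraries left out, or of the compared libraries only, also hold fewer libraries. In Alox5ko the count was 9 with DESeq2, 5 without the filter, 0 with only the libraries compared and 0 to 3 with a library left out, in place of 1; the median ran from -0.226 to -0.148. In WT it was 4 with DESeq2 and 0 to 1 with a library left out, in place of 2. Over both genotypes it was 16 with DESeq2 and 4 to 13 with a library left out, in place of 10. No DESeq2 count over all genes is set beside the 16 here, so it is not read as a result about the 34 genes. For Alox5ko_TAC against WT_TAC it was 1 with only the libraries compared and 0 to 1 with a library left out, in place of 0, and averaged over treatments it was 0 to 1 (Ucp3 without WT_NS replicate 3, Angptl4 without Alox5ko_TAC replicate 2). Leaving out WT_TAC replicate 1 and Alox5ko_TAC replicate 2 together, chosen after seeing the data, gave 5 in Alox5ko, 1 for Alox5ko_TAC against WT_TAC (median 0.0437), 1 averaged over treatments and an interaction median of -0.0776. Leaving out WT_NS replicate 1, WT_TAC replicate 1 and Alox5ko_TAC replicate 3 together, also chosen after seeing the data, gave 0 in Alox5ko, 0 in WT and 2 over both genotypes, with fewer libraries. With library totals the median was 0.0531 for Alox5ko_NS against WT_NS and 0.0505 for the interaction, in place of 0.134 and -0.0165; the median of all genes moved to -0.0789 and 0.0602.

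No pairing of libraries by replicate number was found: none of 18 same-numbered pairs had a correlation of deviations over 0.1 (-0.121 to 0.0916), and 3 of 12 libraries correlated best with their own number. With 3 libraries a group this check can miss a pairing, and the labels do not describe one. With the replicate block the count was 1 in Alox5ko, 2 in WT, 11 over both genotypes and 0 between genotypes. With 3 libraries a group, single-gene intervals limit what a genotype difference could show.

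Over all genes the calls numbered 288 with DESeq2, 538 without the filter, 215 with only the libraries compared and 17 to 95 with a library left out in WT, in place of 119. In Alox5ko they numbered 401 with DESeq2, 756 without the filter and 60 to 379 with a library left out, in place of 209. Over both genotypes they numbered 1331 without the filter and 407 to 990 with a library left out, in place of 790. For Alox5ko_TAC against WT_TAC they numbered 55 with DESeq2, 252 without the filter and 39 with only the libraries compared, in place of 17. For Alox5ko_NS against WT_NS they numbered 23, 116 and 18 in the same order, in place of 6. Averaged over treatments they numbered 88 with DESeq2 and 348 without the filter, in place of 24, and for the interaction 1 and 83, in place of 0. Without the 3 libraries with the highest atrial markers they numbered 105 in Alox5ko, 28 in WT, 165 over both genotypes, 54 for Alox5ko_TAC against WT_TAC, 21 for Alox5ko_NS against WT_NS and 46 for the interaction.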
